A study of Mus musculus with 2 samples.

Results

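The Hox genes form 4 clusters of homeobox transcription factor genes, HoxA on chromosome 6, HoxB on chromosome 11, HoxC on chromosome 15 and HoxD on chromosome 2. The 38 Hox genes described here were taken by name from the GENCODE annotation of mouse build mm10 (GRCm38), out of 21938 protein-coding genes: 10 in HoxA, 10 in HoxB, 9 in HoxC and 9 in HoxD. Their names carry a paralogue number from 1 to 13, which was used to order them. The data are DNase-seq, which maps open chromatin by sequencing DNA ends made where the enzyme DNase I cuts. It was run on 2 libraries of whole embryonic liver at day 13.5, biological replicates 1 and 2 of a single group. Per the labels the mice were of strain C57BL/6N,129 carrying what they call LCR deletion and HET globin mutation, and both libraries carry the same donor identifier with different biosamples. The labels do not say which bases the deletion removes or spell out LCR and HET, and the group has no control without them, so nothing below can be read as an effect of the mutation.

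Hox proteins bind DNA, often with Pbx and Meis partners, and give cells their position along the head-to-tail axis of the embryo. Genes with low paralogue numbers act in anterior regions and genes with high numbers in posterior regions and limbs. In each cluster the genes lie in the order of their numbers and are read in the same direction. In tissues where a Hox gene is off, its chromatin is usually held by Polycomb complexes, and the protein CTCF binds between neighbouring Hox genes and can separate active from silent stretches. Some Hox genes, such as Hoxa9, Hoxa10 and Hoxb4, are known for their part in blood stem and progenitor cells, while maturing red cells, the main cells of fetal liver at this age, are known for low Hox expression.

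Across the 4 clusters the longer deposited peak lists held 9 open sites, of which 4 were in both libraries, 4 in replicate 1 alone and 1 in replicate 2 alone. The shared sites fell 1 to a cluster. In HoxB and HoxC the shared site lay between the genes of groups 9 and 8. In HoxA it lay over the outermost start of Hoxa7, with Hoxa9 as its other neighbour. In HoxD it lay at the start of the antisense transcript Hoxd3os1, in the stretch between Hoxd8 and the start of the coding Hoxd4 transcript. A coding Hoxd3 transcript starts in that stretch too, 3934 bases before the site, so the site lies within the Hoxd3 gene. The arrangement of the 4 shared sites was noticed after the positions were seen, and it has no test.

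The 3 shared sites outside annotated untranslated regions are shown whole because they are the only stretches of the clusters outside member promoters that were open in both libraries. They are on the plus strand of GRCm38, the strand that the genes of these 3 clusters are read from, with the footprints of replicate 1 in capitals. A footprint is a short stretch inside a peak with fewer cuts than its flanks, as listed by the authors.
HoxB, chr11:96278901-96279042: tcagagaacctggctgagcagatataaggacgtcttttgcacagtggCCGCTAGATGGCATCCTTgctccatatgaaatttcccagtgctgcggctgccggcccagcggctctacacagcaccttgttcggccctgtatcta
HoxC, chr15:102987521-102987700: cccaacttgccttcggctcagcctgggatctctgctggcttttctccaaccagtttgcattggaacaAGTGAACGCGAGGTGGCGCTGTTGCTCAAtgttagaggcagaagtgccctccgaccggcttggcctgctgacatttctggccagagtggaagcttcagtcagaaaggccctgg
HoxD, chr2:74715861-74716040: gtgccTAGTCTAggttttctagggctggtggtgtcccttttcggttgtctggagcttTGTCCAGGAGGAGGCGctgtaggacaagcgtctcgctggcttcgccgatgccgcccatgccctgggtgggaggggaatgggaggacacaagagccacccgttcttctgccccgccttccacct
The footprint in the HoxC site was 29 bases long in replicate 1 and 34 bases in replicate 2.

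Few Hox promoters were open. A promoter counted as open in a library when a peak of the longer list lay within 1000 bases of any annotated start of the gene. Replicate 1 had such a peak at 6 of the 38 Hox genes, or 15.8%, against 58.5% of all protein-coding genes. Replicate 2 had 1 of 38, or 2.63%, against 55.4% of all genes. Both libraries agreed on 1 Hox gene, Hoxa7, where 54.1% of all genes were open in both. No peak in either library was found at 32 Hox genes. The 6 with a peak in at least 1 library compare with 59.8% of all genes. By cluster, replicate 1 had open promoters at 2 of 10 genes in HoxA, 1 of 10 in HoxB, 2 of 9 in HoxC and 1 of 9 in HoxD. By paralogue number it had 1 of 7 in groups 1 to 3, 3 of 15 in groups 4 to 8 and 2 of 16 in groups 9 to 13. With counts this small, no cluster or paralogue range stood out. The tissue is a mixture of cells, so a site open in few cells and a site weakly open in most cells cannot be told apart.

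The low share was not matched by genes of like base composition. Promoters rich in CpG dinucleotides are open in most tissues, so CpG content was counted in the 500 bases on each side of a start. The Hox genes had between 2.60 and 14.7 CpG per 100 bases with a median of 6.19. Among 14355 other genes in that range, 78.7% were open in both libraries. The third quartile of CpG content held 19 Hox genes, of which 1 was open in both libraries, against 83.1% of all genes in the quartile. The highest quartile held 7, with none open in both, against 86.2%, and the second held 12, again with none, against 46.9%. Hoxd8, with 14.7 CpG per 100 bases, and Hoxa13, with 13.7, had no promoter peak in either library.

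**Figure D1:**
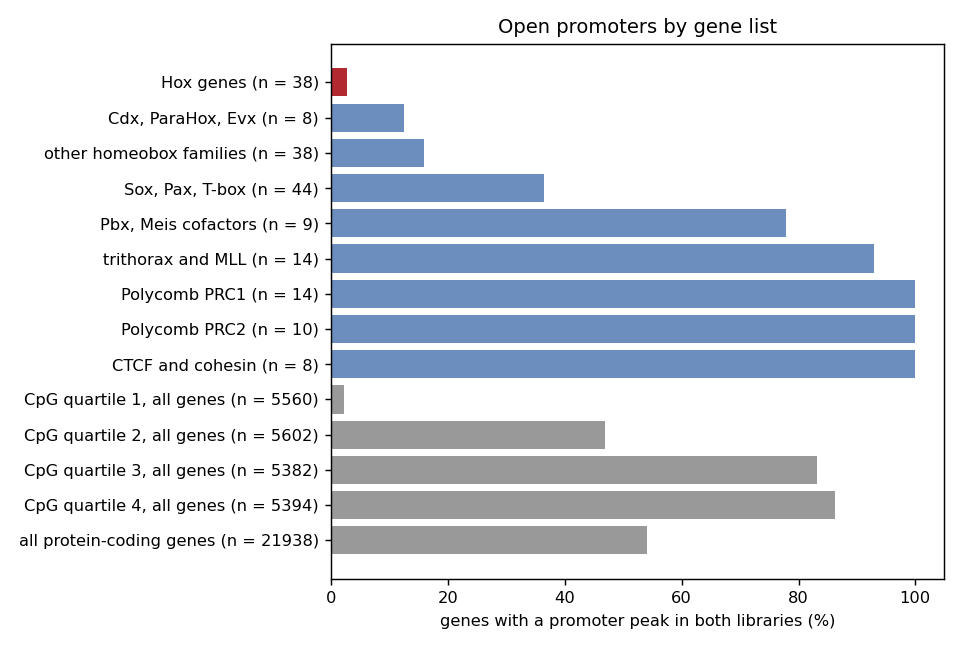
Share of genes with a promoter peak in both libraries (x axis, percent) for the Hox genes (red), 8 other gene lists (blue) and all protein-coding genes, whole and by quartile of CpG content (grey), with the number of genes beside each name. The Hox bar stands at 2.63%, under every bar but that of the quartile with the fewest CpG, at 2.16%.

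Hoxa7, a group 7 gene, was the only member with a promoter peak in both libraries. Its peak value, the authors' depth-normalised signal, was 1.76 in replicate 1 (95% interval 1.49 to 2.08) and 1.47 in replicate 2 (1.20 to 1.78). These intervals take 1 step of the value as 1 read and cover counting error only. The value was low among open promoters: 22.8% of those in replicate 1 and 19.8% of those in replicate 2 were lower, and the median open promoter had 5.21 and 3.60. The peak, chr6:52221721-52221940, lies over the annotated Hoxa7 start at 52221854, in its 5′ untranslated region. The other Hoxa7 starts lie 1328, 3010, 4216 and 4269 bases away. The RefSeq start is 3148 bases away, so with RefSeq starts Hoxa7 no longer had an open promoter.

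Hoxa10, a group 10 gene expressed in blood progenitors, had a peak in replicate 1 of value 1.32 (1.08 to 1.59) at chr6:52240481-52240620. It lay in an untranslated exon 175 bases from the nearest start, and 5542 bases from the start of a shorter Hoxa10 transcript. Hoxc10 had a peak in replicate 1 of 1.26 (1.02 to 1.53) at chr15:102966490-102966680, 116 bases upstream of its start. Hoxc5 was counted as open through this same peak, because a long Hoxc5 transcript starts 763 bases from it. With starts of coding transcripts the peak belongs to Hoxc10 alone. So the 6 open promoters of replicate 1 were 5 peaks.

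Hoxb5, whose peak at chr11:96303181-96303283 ends 53 bases before its first start and 229 bases before its coding start, had 0.850 (0.662 to 1.08) in replicate 1. Hoxd1, the only group 1 gene with a peak, had the lowest value of all the sites, 0.591 (0.436 to 0.784) in replicate 1 at chr2:74762920-74762997, over its start. Replicate 2 listed no peak at Hoxa10, Hoxc10, Hoxb5 or Hoxd1, and no stretch there with a false discovery rate of cutting under 0.05. A peak of this height often went unlisted in replicate 2: of the 16297 peaks of replicate 1 with values from 0.591 to 1.32, 51.7% overlapped a peak of replicate 2. Replicate 2 also had fewer peaks in all, 36523 against 47198.

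The members with no promoter peak in either library were Hoxa2, Hoxa3, Hoxa4, Hoxa5, Hoxa6, Hoxa9, Hoxa11 and Hoxa13 in HoxA, and Hoxb1, Hoxb2, Hoxb3, Hoxb4, Hoxb6, Hoxb7, Hoxb8, Hoxb9 and Hoxb13 in HoxB. In HoxC they were Hoxc4, Hoxc6, Hoxc8, Hoxc9, Hoxc11, Hoxc12 and Hoxc13, and in HoxD they were Hoxd3, Hoxd4, Hoxd8, Hoxd9, Hoxd10, Hoxd11, Hoxd12 and Hoxd13. Hoxa9, which marks blood progenitors, was thus in the closed set together with Hoxb4. Of these genes Hoxb4 alone had a stretch of raised cutting near its start, 34 bases long with a lowest false discovery rate of 0.0332, in replicate 1. Counting such stretches in place of peaks gave 7 Hox promoters in replicate 1, against 59.7% of all genes, and 1 in replicate 2, against 56.6%. The one seen in both was Hoxa7 again, against 55.1% of all genes.

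**Figure D2:**
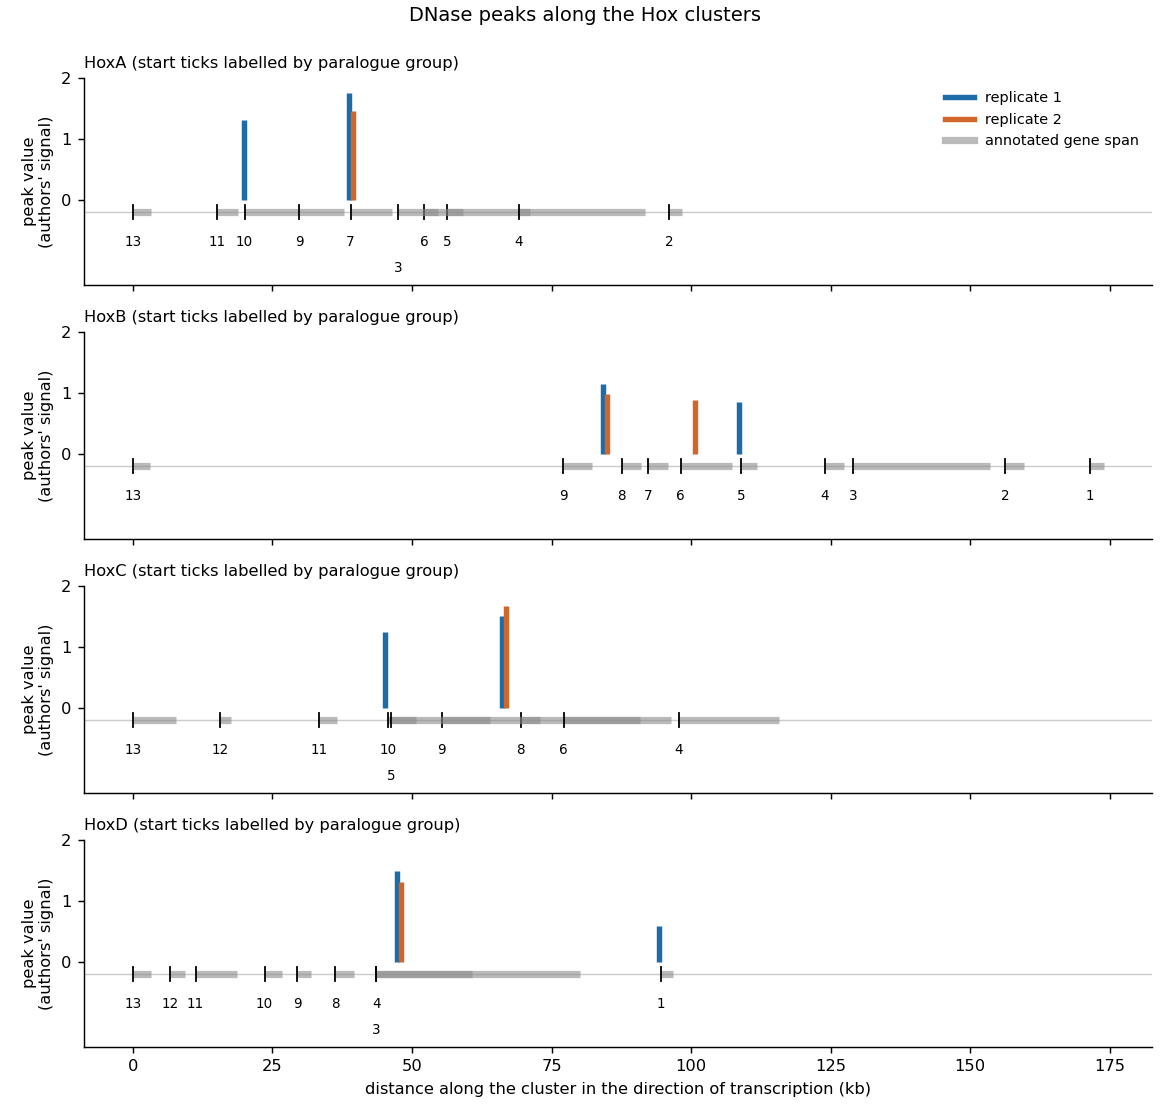
The 4 Hox clusters, each drawn in the direction of transcription (x axis, kb from the start of the group 13 gene); black ticks are the outermost gene starts with their paralogue numbers, grey bars the annotated genes, and coloured bars the peak values (y axis, authors' signal) in replicates 1 and 2. Both colours stand side by side at 1 place in each cluster.

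Outside member promoters, 3 sites were open in both libraries. In HoxC, the site between Hoxc9 and Hoxc8 reached 1.52 (1.26 to 1.81) in replicate 1 and a higher 1.68 (1.39 to 2.00) in replicate 2. It lies 2422 bases past the end of Hoxc9 and 2907 bases before the Hoxc8 start, in an intron of the long Hoxc5 transcript. The HoxD site was at 1.50 in replicate 1 (1.25 to 1.79) and at 1.32 in replicate 2 (1.07 to 1.61). It covers the annotated start of Hoxd3os1, inside introns of long Hoxd3 and Hoxd4 transcripts, 7928 bases past the end of Hoxd8 and 3932 bases from the nearest member start. The HoxB site between Hoxb9 and Hoxb8 was the weakest of the shared sites, with 1.15 (0.925 to 1.40) in replicate 1 and 0.984 (0.769 to 1.24) in replicate 2. It is intergenic in GENCODE, 2306 bases past Hoxb9 and 2863 bases before Hoxb8, although RefSeq places a Hoxb8 start 359 bases from it.

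The lowest false discovery rate in the HoxC site was 7.14e-06 in replicate 1 and 6.34e-07 in replicate 2, the lowest of any Hox site in replicate 2. In the HoxD site it was 6.67e-06 and 0.000178, in the HoxA site 5.31e-05 and 5.23e-05, and in the HoxB site 0.000181 and 0.0105. The HoxB site was also the one shared site missing from the shorter peak list of replicate 2. In HoxA, HoxB and HoxD the value was lower in replicate 2, with log2 ratios of replicate 2 to replicate 1 of -0.26, -0.22 and -0.19. In HoxC it was higher, at 0.15. Shared peaks of like value across the genome had median ratios of -0.41, -0.32, -0.38 and -0.41 for HoxA, HoxB, HoxD and HoxC, and all 4 Hox ratios lay within the central 90% of those peaks. The intervals of both libraries overlapped at every shared site. The median of all peaks away from starts, shared or not, was 0.924 in replicate 1 and 0.915 in replicate 2. The HoxB, HoxC and HoxD sites were above it in both libraries. They were picked as shared sites, and the median of shared peaks away from starts was not taken. So this does not say where they stand among shared peaks.

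One further site, chr11:96294686-96294767, was listed in replicate 2 alone at 0.887 (0.683 to 1.13). It lies in introns of Hoxb6 and of the antisense transcript Hoxb5os, 2210 bases from the outer Hoxb6 start, and had no footprint.

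**Figure D3:**
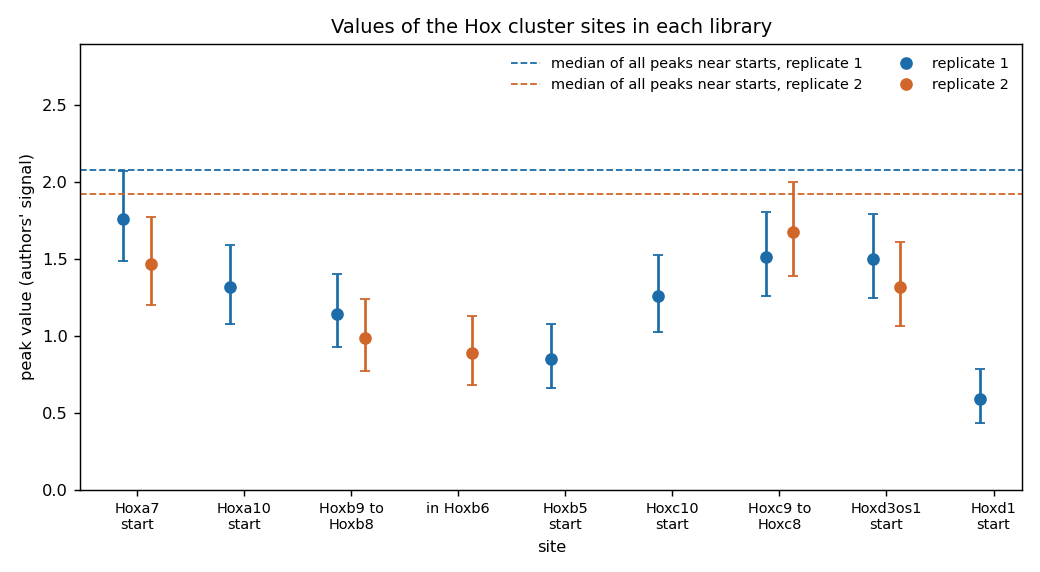
Peak values (y axis, authors' signal) at the 9 Hox cluster sites (x axis) in replicate 1 (blue) and replicate 2 (orange), with 95% Poisson intervals that take 1 step of the value as 1 read; dashed lines are the median values of all peaks near gene starts, 2.08 and 1.93. Every site lies under the dashed line of its library, and 4 sites have a value in both.

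Compared with the genome, the clusters were closer to average in the number of peaks per 100 kb than in the share of open promoters. Over 493 kb, the clusters widened by 1000 bases held 8 peaks in replicate 1 and 5 in replicate 2, or 1.62 and 1.01 per 100 kb, against 1.73 and 1.34 per 100 kb genome-wide. Peaks covered 0.250% and 0.168% of the clusters, against 0.354% and 0.320% of the genome. All shared peaks numbered 4, or 0.811 per 100 kb, against 1.11 per 100 kb in the genome. Shared peaks away from protein-coding starts numbered 3, or 0.609 per 100 kb, against 0.470 per 100 kb in the genome. With so few sites the counting error is large, and neither difference was tested. The 38 Hox genes lie in these 493 kb, against 21938 protein-coding genes in the 2726 Mb of the genome. The clusters are thus far denser in genes, and no regions of like gene density were set beside them. The rates away from starts also use the whole length, with the stretches near starts not taken out.

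Within the widened clusters, the longest stretches without a peak in either library were 60.3 kb in HoxA, 85.6 kb in HoxB, 50.2 kb in HoxC and 48.6 kb in HoxD. Each runs from the shared site to an edge of the widened cluster, so its full length beyond that edge is not known. No lengths from the rest of the genome were set beside them. In HoxA the stretch held 5 whole genes, Hoxa2 to Hoxa6. In HoxD it held 6 whole genes, Hoxd8 to Hoxd13, and also the outermost starts of Hoxd3 and Hoxd4, whose long transcripts run on past the shared site. In HoxB the whole genes in it were Hoxb9 and Hoxb13, and in HoxC they were Hoxc4, Hoxc6 and Hoxc8. Hoxc5 runs into the HoxC stretch as well, but its long transcript begins before it, so it was not counted as whole.

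Weaker signs of cutting were also few. Stretches with a listed false discovery rate but no peak numbered 4 in replicate 1, with lowest rates from 0.0325 to 0.0359, and 1 in replicate 2, at 0.0400. Those of replicate 1 lay in HoxA, 7916 bases from Hoxa2 and 1335 bases from Hoxa3, and in HoxB, 6521 and 328 bases from Hoxb4. The one in replicate 2 lay 2217 bases from Hoxd8. None of them was listed in both libraries. The peak lists reach well under the Hox values: 18.5% of the peaks of replicate 1 had values under 0.591, and 33.5% of those of replicate 2 had values under 0.887, the lowest Hox values in each library.

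The Hox clusters held 13 footprints in replicate 1 and 6 in replicate 2, all inside peaks, and 5 of those in replicate 1 overlapped one in replicate 2. The share of all footprints that overlap between libraries was not counted, so whether this overlap is usual is not known. The shared Hox footprints were 2 at the Hoxa7 start, 1 in the HoxC site and 2 in the HoxD site. In replicate 1, 7 of the 8 peaks had a footprint, with a mean of 1.62 per peak. Peaks of like value had a mean of 1.61, and 76.4% of them had a footprint. In replicate 2, 3 of the 5 peaks had one, with a mean of 1.20 against 1.70 and 76.6% of peaks of like value. The number of footprints per Hox peak was therefore near that of comparable peaks in replicate 1.

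Footprints and peaks were searched on both strands for short patterns of factors known at Hox genes or in blood. A strict CTCF consensus of 12 bases was found in 3 of the 13 footprints of replicate 1 and 2 of the 6 of replicate 2, against 3.20% and 2.41% of all footprints, each widened by 5 bases. The other 12 patterns were in none of the Hox footprints. They were TGATNNAT for Hox with Pbx, TGACAG for Meis, TTTATNG for Cdx and posterior Hox, TAATTA for homeodomains, AGATAA for erythroid GATA factors, CCGGAAG for ETS factors, GGGCGGG for Sp and Klf, GCGCATGCG for NRF1, CCAAT for NF-Y, AANATGGC for YY1 and CAGATG for an E-box, together with the direct repeat bound by retinoic acid receptors. The YY1 pattern can overlap the CTCF one. In replicate 1 they occurred in between 0%, for the retinoic acid receptor repeat, and 7.86%, for Sp and Klf, of all footprints, with CCAAT at 3.12%, so few matches could be had in 13. Inside whole Hox peaks, CCAAT was found in 3 sites, the Hoxc10, HoxC and Hoxd1 ones, where 21.6% of all peaks of replicate 1 hold it. The YY1 pattern was found in the Hoxc10 site, with 4.69% of all peaks holding it.

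Because the CTCF pattern is strict, a weight matrix of 20 bases was built from footprints of these libraries outside the Hox clusters that held it. A match was a score that 1% of control windows beside footprints reach. This step was chosen after the data were seen. The matrix matched 8 of the 9 Hox sites and all 4 shared sites, the exception being Hoxd1. In the genome 38.0% of the peaks of replicate 1, 37.9% of those of replicate 2 and 42.2% of shared peaks had a match. The share was 51.0% among shared peaks of like length, 32.3% among shared peaks near protein-coding starts, 55.7% among shared peaks away from them and 60.9% among those of the last kind with a value in the range of the shared Hox sites. Of the 4 sites seen in replicate 1 alone, 3 had a match, against 30.3% of such peaks. The scores at the 4 shared sites were 15.8 in HoxD, 14.6 in HoxB, 14.4 in HoxA and 12.7 in HoxC. A score of 12.7 or more was reached by 19.9% of the peaks of replicate 1 and by 40.4% of shared peaks away from starts. With the threshold at 0.1% of control windows, 7 of the 9 Hox sites had a match, as did 21.9% of the peaks of replicate 1.

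The best match in each of the 8 sites is given 5′ to 3′ on its own strand, with the 12 bases of the strict pattern's place in capitals, so that the letters behind each call can be seen.
Hoxa7 start, chr6:52221805-52221824, minus strand: aattCCAGGAGATGGCagtg
Hoxa10, chr6:52240537-52240556, minus strand: gccgCCACGAGATGGCgcac
Hoxb9 to Hoxb8, chr11:96278944-96278963, plus strand: gtggCCGCTAGATGGCatcc
in Hoxb6, chr11:96294694-96294713, minus strand: acggACGGTAGATGGCagca
Hoxb5, chr11:96303241-96303260, plus strand: atcgCCGGGAGGTGGCgcgc
Hoxc10, chr15:102966568-102966587, plus strand: gcagCTGCTAGGTGGCgctg
Hoxc9 to Hoxc8, chr15:102987589-102987608, plus strand: gtgaACGCGAGGTGGCgctg
Hoxd3os1 start, chr2:74715917-74715936, plus strand: ttgtCCAGGAGGAGGCgctg
The letters that these sequences have in common follow from the choice of best matches to 1 matrix. The strict pattern held in 3 of them, those at Hoxa7, Hoxa10 and Hoxd3os1.

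A footprint covered the match in most of these sites. In replicate 1 the overlap was 20 of the 20 bases in the HoxC site and at Hoxc10, 18 at Hoxa10, and 16 in the HoxA, HoxB and HoxD sites. At Hoxb5 and in Hoxb6 no footprint overlapped it. In replicate 2 it was 20 bases in HoxC and 10 bases in both HoxA and HoxD, and none in HoxB. Of single footprints, 6 of 13 in replicate 1 and 3 of 6 in replicate 2 had a match, against 8.99% and 6.96% of all footprints. Peaks with such a footprint made up 21.7% of the peaks of replicate 1 and 16.5% of those of replicate 2. The match read in the direction of the Hox genes in 7 of the 8 sites, the exception being the one in Hoxb6. Across the 17919 matching peaks of replicate 1, 52.4% read in the direction of the nearest protein-coding gene. A match describes the letters, and binding of CTCF was not measured here.

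**Figure D4:**
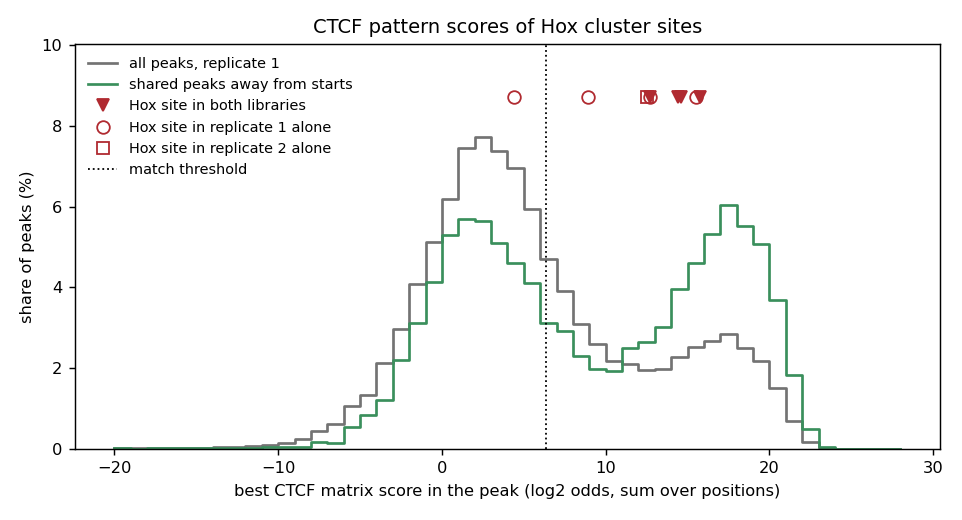
Best CTCF matrix score in a peak (x axis, summed log2 odds) against the share of peaks (y axis, percent) for all peaks of replicate 1 (grey) and for shared peaks over 1000 bases from a protein-coding start (green); red marks are the 9 Hox sites, filled where both libraries had the site, and the dotted line is the match threshold. The 4 shared Hox sites lie between 12.7 and 15.8, and 1 site, at Hoxd1, lies left of the line.

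The 17 long non-coding genes that start within the clusters were closed apart from Hoxd3os1, at 1.50 and 1.32 in replicates 1 and 2, and Haglr, which shares the Hoxd1 peak at 0.591 in replicate 1. Hotair, a HoxC transcript, and Hoxa11os had no peak. None of the 7 miRNA genes of the clusters, which include Mir10a, Mir10b, Mir196b and Mir615, had a peak within 1000 bases in either library. The share of all long non-coding or miRNA genes with a peak was not counted. These counts therefore do not show whether such genes were more closed here than elsewhere. Just outside the clusters the picture changed from gene to gene. Evx1 next to HoxA and Evx2 next to HoxD, homeobox genes related to the Hox family, had no promoter peak. The next genes outward did: Hibadh had 18.1 in replicate 1 and 7.67 in replicate 2, and Lnpk 9.02 and 5.16. On the other sides, Skap2 had 17.1 and 6.36, and Mtx2 had 2.94 and 2.43. Beside HoxC all 4 flanking genes were open in both libraries, from Smug1 at 3.71 and 2.00 to Cbx5, a heterochromatin protein gene, at 10.9 and 5.32. Atp5g2 had 9.51 and 5.30, and Calcoco1 had 7.62 and 3.94. Beside HoxB, Snx11 had 21.1 and 7.79 and Ttll6 had 0.838 and 0.596, while Skap1 had 0.431 in replicate 1 alone and Calcoco2 had no peak. Snx10, the second gene from HoxA, had 0.653 in replicate 1 alone.

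Genes that act with or on the Hox clusters were counted in the same way, against the 54.1% of all genes open in both libraries. Of the Pbx and Meis partner genes, 7 of 9 were open in both libraries, among them Pknox1 with 24.8 in replicate 1 and 6.60 in replicate 2 and Pbx3 with 14.8 and 7.32. All 10 genes of Polycomb complex PRC2, the histone H3K27 methyltransferase, and all 14 of PRC1 were open in both. So were 13 of 14 trithorax and MLL genes, which keep Hox genes active, and all 8 CTCF and cohesin genes. The median CpG content of these last 4 lists was 8.99 to 11.0 per 100 bases, in the highest quartile, where 86.2% of all genes were open in both, so their counts stand near that background. That of the Pbx and Meis list was 6.39, in the third quartile, where 83.1% were open in both. Its own share, 77.8%, was not above that background. By contrast 1 of 8 Cdx, ParaHox and Evx genes was open in both, Gsx1 at 0.653 and 0.471, and Cdx1, Cdx2 and Cdx4, known activators of Hox genes, had no peak. Of the retinoic acid genes 5 of 14 were open in both libraries. Other developmental families were less open than all genes but held more open members than the Hox genes: 6 of 38 from other homeobox families, or 15.8%, and 16 of 44 Sox, Pax and T-box genes, or 36.4%. Six5 led the first, with 5.53 and 2.65, and Lhx3 followed with 3.51 and 2.19. The lists were not tested against each other.

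Promoters of cell type markers were counted as a check of the tissue, against the same 54.1% of all genes. Of 12 erythroid markers, 12 had an open promoter in replicate 1 and 11 in both libraries, among them Tfrc at 18.1 and 7.46 and Epor at 15.3 and 6.39, with Alas2 in replicate 1 alone. Of 11 blood stem and progenitor markers 6 were open in both, of 14 hepatoblast markers 4, of 11 stellate and mesenchymal markers 4, of 8 endothelial markers 1 and of 7 macrophage markers none. The progenitor share, 54.5%, was at the level of all genes. It was under the 83.1% of the third quartile of CpG content, where that list's median of 6.59 CpG per 100 bases lies. Of the macrophage markers, Vcam1 had a promoter peak in replicate 2 alone, at 0.444. Adgre1, Csf1r, C1qa, C1qb, Cd163 and Marco had none in either library. The macrophage list had a median of 1.40 CpG per 100 bases, in the lowest quartile, where 2.16% of all genes were open in both. These counts therefore do not show which of the other cell types were present. The part of each cell type in the Hox sites was not tested.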

How the data were processed

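The authors deposited, per library, a longer and a shorter peak list with a depth-normalised cleavage signal, footprints, and false discovery rates (q-value type p-values) of the cut rate listed under 0.05. Per the notes deposited with the files, each was made from the library's own filtered alignments to mm10. Which peak caller was run was not given in the sources used here. In the deposited files the footprint score is a constant 0.01, so only positions were used. Signal values are whole multiples of 1 step, 0.0123 in replicate 1 and 0.0139 in replicate 2. If 1 step is 1 read per 1e6, the depth was 81.2 and 72.1 times 1e6 reads. Exact Poisson intervals rest on that assumption. How the signal compares between libraries is not stated.

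The analysis took the longer lists on chromosomes 1 to 19 and both sex chromosomes. Overlap of at least 1 base made peaks or footprints shared. Clusters ran from the first to the last base of their 38 members, widened by 1000 bases. Starts came from GENCODE vM21 protein-coding genes and sequences from RefSeq's GRCm38.p6. All members and peaks are named. Each other list gives at most 3 genes, those highest at the promoter in replicate 1; any further gene was picked with its values in view. The members and lists were chosen with earlier results of these data known. With 1 group there is no test between groups, and shares of all genes or peaks are the background. The matrix came from 2520 strict matches in shared footprints outside the clusters, was re-estimated from 6060 footprints, and its threshold from 229598 windows shifted by 100 bases. The promoter and matrix searches were tested on simulated data. Further settings tried were 500 and 2500 bases, coding or RefSeq starts, the shorter list, the top 50% of peaks, reciprocal overlap, wider clusters and leaving out a library. Python 3.11.15, pandas 2.3.3, numpy 2.4.6, scipy 1.17.1 and samtools 1.23.1 were used.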

Additional observations from a re-analysis of the deposited data

How the results depend on the processing

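The count of Hox promoters open in both libraries was 1 under every alternative that kept both libraries, while the share of all genes ran from 45.8% to 56.1%. The gene was Hoxa7 in each, except with 1 RefSeq start per gene, where it was Hoxb8, through the HoxB site. Leaving out 1 library gave 1 to 6 promoters: 6 in replicate 1 alone, without replicate 2. Other shared sites numbered 3, and 2, those of HoxC and HoxD, with the shorter lists or the upper 50% of peaks; leaving out 1 library gave 3 to 4. Shared footprints numbered 5, and 4 within the shorter lists; leaving out 1 library gave 6 to 13, with 13 in replicate 1 alone, without replicate 2. The sites with a CTCF matrix match, 8 of 9, became 3 with the strict pattern and 7 at the stricter threshold. Leaving out a library also left fewer sites: 5 of 5 matched without replicate 1 and 7 of 8 without replicate 2. Those 4 alternatives were chosen after seeing the data. No paired analysis was possible because there is 1 group and no comparison between groups. The sites seen in replicate 1 alone are known in replicate 2 only as not listed, and the part of depth in this was not tested.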
